A study of Mus musculus with 6 samples.

Results

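The genes examined here are 34 genes of the choroid plexus epithelium, found by their symbols among the 55359 genes of the deposited table. The set was put together from knowledge of the tissue, and some members were selected on their lower counts and FPKM in libraries labelled Tet2 cKO than in WT, so every difference between the genotype groups below is a description and supports nothing by itself. RNA was sequenced from the habenula, a small pair of nuclei in the dorsal diencephalon, of C57BL/6 mice aged 2 months. Of the 6 libraries, 3 carry the label Tet2 cKO (conditional knockout of Tet2, which encodes a dioxygenase acting on methylated DNA) and 3 the label WT. The labels do not name the Cre driver, the deleted exons or the number of animals behind each library. Spreads and p-values therefore concern these libraries, and the spread may be technical.

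The choroid plexus is a fronded tissue inside the brain ventricles, and a sheet of it hangs from the roof of the third ventricle close to the habenula. Its epithelial cells secrete cerebrospinal fluid by moving sodium, chloride, bicarbonate, potassium and water, and they form a barrier sealed by tight junctions. They also release carrier proteins and signals into the fluid, of which transthyretin is the best known. Neurons of the habenula are not known for this programme.

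Library totals lay between 16089676 and 17917987 counts. Levels are given as FPKM (fragments per kilobase of gene length, scaled to the library total), which allows comparison between genes. Tet2 itself was not lower under its label, at 4.47, 4.02 and 3.96 FPKM in the libraries labelled Tet2 cKO, against 3.45, 3.46 and 3.71 FPKM in WT. The log2 difference was 0.22 (95% interval 0.048 to 0.39, adjusted p = 0.9999 by edgeR), on a count that covers the whole gene and overlaps Gm42567 on the opposite strand. The groups are therefore called by their labels, and the libraries labelled Tet2 cKO are written cKO-labelled for short. Markers of habenula neurons were present in every library, with the 8 listed genes summing to 214.5, 147.6 and 194.7 FPKM in cKO-labelled libraries, against 190.1, 234.0 and 113.8 FPKM in WT. Replicate 2 was the lowest cKO-labelled library and replicate 3 the lowest WT library for these markers, as for Ttr below, and all 8 were higher in WT replicate 1 than in WT replicate 3. The part of this in the choroid plexus values was not tested. WT replicate 3 stood apart from WT replicates 1 and 2 and cKO-labelled replicates 2 and 3, by a mean chi-square of 19.4 to 20.8 per gene. cKO-labelled replicate 1 differed from every other library, WT replicate 3 included, by 8.75 to 10.7. Pairs without either of them gave 4.17 to 7.23.

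Choroid plexus epithelial transcripts were present in every library, and their amount differed several-fold from library to library within each group. The 34 genes together took 30341, 11800 and 14893 counts in cKO-labelled libraries, against 55854, 31164 and 18597 counts in WT. These sums were 0.174%, 0.0659% and 0.0833% of all counts in cKO-labelled libraries, against 0.323%, 0.194% and 0.105% in WT. cKO-labelled replicate 1 was thus close to WT replicate 2 and above WT replicate 3, and the groups overlapped. In these bulk samples, fewer choroid plexus cells and less RNA per cell cannot be told apart. Ttr and Enpp2 made up most of each sum. The other 32 genes gave the same order, with 4631, 2978 and 3383 counts in cKO-labelled libraries, against 9385, 5769 and 3685 counts in WT.

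All 34 genes had a lower mean FPKM in cKO-labelled libraries than in WT, for which the share of all genes was not counted. The fit across genes took the 14539 genes whose average over the 6 libraries reached 1 FPKM, and 28 of the 34 were among them. On the edgeR log2 difference, 28 of the 28 lay below 0, against 50.9% of all tested genes. Car12 and Col8a1, at 1.09 and 1.11 FPKM, lay just above that minimum, and Wdr86, at 0.697 FPKM, lay just below it. The edgeR quasi-likelihood test called 0 of the 28 (0% of all tested genes) at an adjusted p under 0.05 by the Benjamini-Hochberg method. At an unadjusted p under 0.05, 20 of the 28 were lower (1.68% of all tested genes) and 0 higher (0.894%). limma on log2(FPKM + 1) called 0 of the 28 (0%), DESeq2 called 1, Calml4 (0.0275%), and edgeR with no filter on low values called 19 of the 34 lower (0.101% of the 31689 genes then tested, and 0.155% in either direction). Because this contrast helped to choose the genes, nothing is read from these counts.

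**Figure D1:**
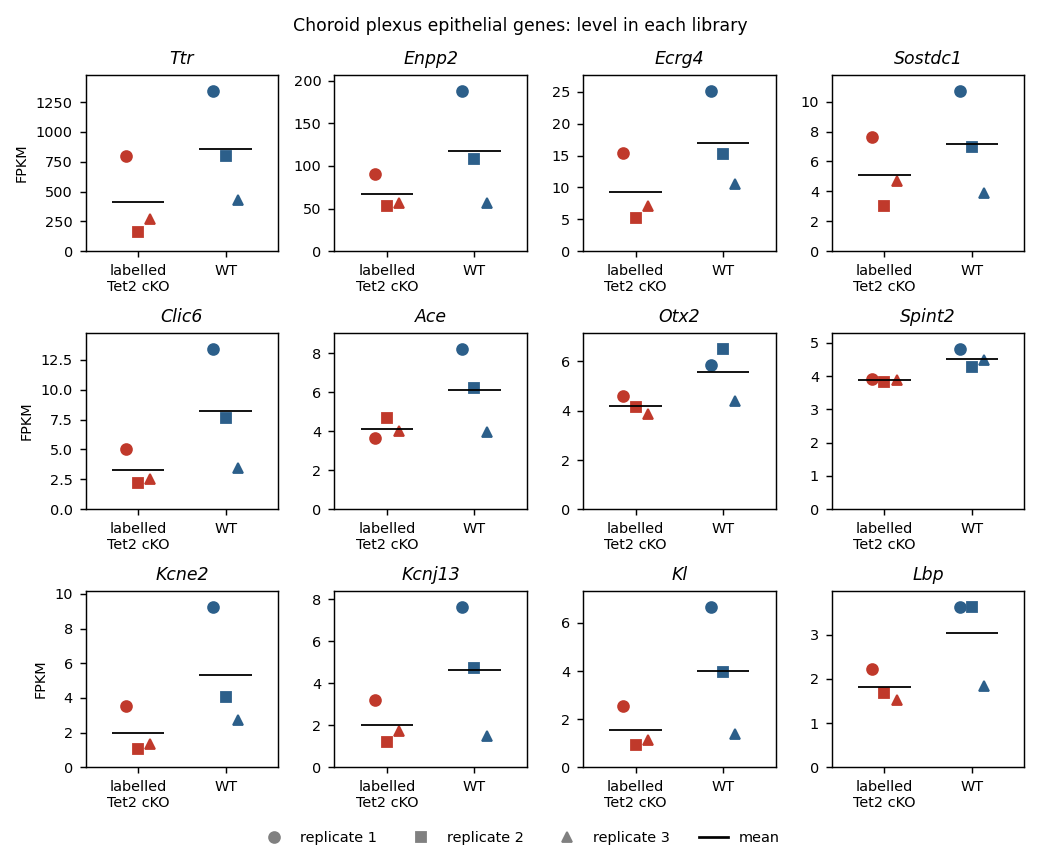
FPKM (linear axes from 0) of the 12 choroid plexus epithelial genes with the highest mean level, in the 3 libraries labelled Tet2 cKO and the 3 WT libraries. Symbols mark the replicate number and bars the group mean. Replicate 1 is the highest of the 3 libraries in most panels of either group, whereas Spint2 is nearly level.

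Among secreted products, Ttr, which carries thyroid hormone and retinol-binding protein in the cerebrospinal fluid, stood far above the rest. Its level was 799, 158 and 269 FPKM in the libraries labelled Tet2 cKO, against 1347, 802 and 430 FPKM in WT. Ttr was the 14th, 140th and 64th most abundant gene by FPKM in cKO-labelled libraries, against the 10th, 13th and 34th in WT. cKO-labelled replicate 1 matched WT replicate 2, and the span within the cKO-labelled libraries, 5.06-fold, exceeded the 3.13-fold span within WT. The log2 difference was -1.09 (SE 0.543).

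Enpp2, which encodes the lysophosphatidic acid-producing enzyme autotaxin and is also made by oligodendrocytes, stood at 91.0, 52.8 and 56.1 FPKM in cKO-labelled libraries, against 189, 108 and 57.1 FPKM in WT. WT replicate 3 lay level with cKO-labelled replicates 2 and 3, so the group difference of -0.83 (SE 0.359) rested on WT replicates 1 and 2. The 8 oligodendrocyte markers listed summed to 1540 to 1709 FPKM in cKO-labelled libraries, against 1455 to 1604 FPKM in WT, and their part in the Enpp2 values was not tested. Ecrg4, a secreted peptide precursor, had 15.4, 5.14 and 7.13 FPKM in cKO-labelled libraries, against 25.2, 15.2 and 10.5 FPKM in WT. Sostdc1, an inhibitor of BMP and Wnt signals, had 7.63, 3.04 and 4.71 FPKM in cKO-labelled libraries, against 10.7, 6.94 and 3.92 FPKM in WT. Both kept the order of Ttr within each group, and their log2 differences were -0.89 (SE 0.395) and -0.50 (SE 0.372).

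F5, coagulation factor V, stood at 1.27, 0.48 and 0.68 FPKM in cKO-labelled libraries, against 3.82, 1.92 and 0.58 FPKM in WT, a 6.59-fold span within WT. Lbp, the lipopolysaccharide-binding protein, had 2.23, 1.68 and 1.52 FPKM in cKO-labelled libraries, against 3.63, 3.62 and 1.84 FPKM in WT. F5 and Lbp differed by -1.39 (SE 0.561) and -0.75 (SE 0.251), and the groups overlapped in both. Spint2, a Kunitz-type inhibitor of serine proteases, was nearly level. Its level was 3.90, 3.83 and 3.87 FPKM in cKO-labelled libraries, against 4.82, 4.28 and 4.47 FPKM in WT, so the groups did not overlap, with the highest library 1.26 times the lowest and a log2 difference of -0.24 (SE 0.0932).

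The transporters that drive fluid secretion had some of the steepest gradients between libraries. Kcnj13, the apical potassium channel Kir7.1, stood at 3.21, 1.19 and 1.72 FPKM in cKO-labelled libraries, against 7.65, 4.75 and 1.51 FPKM in WT. Kcne2, a regulatory subunit of potassium channels, stood at 3.54, 1.07 and 1.33 FPKM in cKO-labelled libraries, against 9.26, 4.04 and 2.71 FPKM in WT. In both genes WT replicate 1 was highest and cKO-labelled replicate 2 lowest, and cKO-labelled replicate 1 was above WT replicate 3.

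Clic6, a member of the chloride intracellular channel family, stood at 5.04, 2.21 and 2.54 FPKM in cKO-labelled libraries, against 13.4, 7.64 and 3.47 FPKM in WT. Aqp1, the water channel, stood at 1.29, 0.34 and 0.81 FPKM in cKO-labelled libraries, against 3.90, 1.66 and 0.71 FPKM in WT, an 11.5-fold span over the 6 libraries. Slc4a5, a sodium bicarbonate cotransporter, had 1.07, 0.38 and 0.53 FPKM in cKO-labelled libraries, against 3.09, 1.42 and 0.59 FPKM in WT. The log2 differences of these 5 genes lay between -1.44 (SE 0.509) for Kcne2 and -1.20 (SE 0.521) for Kcnj13. Trpv4, an osmosensitive cation channel, had 1.36, 0.58 and 0.75 FPKM in cKO-labelled libraries, against 1.97, 1.13 and 1.11 FPKM in WT. Slc13a4, a sulfate transporter, had 2.04, 1.42 and 1.80 FPKM in cKO-labelled libraries, against 3.22, 2.84 and 1.36 FPKM in WT. These 2 genes were flatter, with log2 differences of -0.66 (SE 0.335) and -0.50 (SE 0.280).

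Promoter windows of 3 members with wide spans between libraries are shown, 1 holding each motif searched and 1 holding neither, because Otx2, the homeodomain factor that maintains choroid plexus epithelium, is itself among the 34. RefSeq on GRCm38.p6 gave windows for 27 of the 34 genes, 35 windows in all. Each sequence covers the 250 bases before the RefSeq transcript start, 5′ to 3′ on the gene's strand, with capitals marking TAATCC, the core bound by Otx-type homeodomains, or TATAAA, the TATA box, on either strand (GGATTA and TTTATA in reverse).
Kcnj13 (chr1:87394730-87394979, minus strand): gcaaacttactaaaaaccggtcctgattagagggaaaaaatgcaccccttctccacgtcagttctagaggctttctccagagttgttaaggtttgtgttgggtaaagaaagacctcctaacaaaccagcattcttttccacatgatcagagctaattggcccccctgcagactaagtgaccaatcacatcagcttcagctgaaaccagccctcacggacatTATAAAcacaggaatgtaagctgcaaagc
Kcne2 (chr16:92292139-92292388, plus strand): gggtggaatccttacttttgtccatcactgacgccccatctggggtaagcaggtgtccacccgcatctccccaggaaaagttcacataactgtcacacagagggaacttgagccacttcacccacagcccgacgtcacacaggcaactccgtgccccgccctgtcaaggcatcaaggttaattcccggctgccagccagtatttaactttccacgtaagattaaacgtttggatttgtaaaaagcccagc
Mfrp (chr9:44101520-44101769, plus strand): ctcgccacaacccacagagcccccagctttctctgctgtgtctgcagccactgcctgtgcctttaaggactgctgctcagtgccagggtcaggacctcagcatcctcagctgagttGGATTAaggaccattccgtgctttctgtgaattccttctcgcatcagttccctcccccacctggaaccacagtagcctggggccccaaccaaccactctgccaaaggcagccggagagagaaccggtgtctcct
TAATCC was found in 4 of the 35 windows (11.4%), those of Abca4, Ace, Mfrp and Otx2, against 6.25% of all 32851 windows of that length. TATAAA was found in 8 of the 35 (22.9%), against 12.4% of all windows. The Kcne2 window held neither run of letters, which says nothing about binding of a factor. Such matches are a description of the letters only.

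Kcne2 and Clic6 are neighbours on chromosome 16, with 187607 bases between them (Kcne2 at 92292389 to 92298129 and Clic6 at 92485736 to 92541243, both on the plus strand of GRCm38). Both were higher in replicate 1 than in replicate 2 in cKO-labelled libraries, by 3.31-fold for Kcne2 and 2.28-fold for Clic6, and higher in WT replicate 1 than in WT replicate 3, by 3.42-fold and 3.87-fold. The expressed genes lying between them did not share this. Smim11 was 1.09 times as high in cKO-labelled replicate 1 as in replicate 2 and 0.622 times as high in WT replicate 1 as in WT replicate 3, and Rcan1, a calcineurin regulator, gave 1.11 and 0.848.

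Among the receptors and enzymes of the epithelial surface, Mfrp and Car12 had the largest log2 differences of the 28 tested genes, while the median of the 7 genes of this role was -1.21, against -1.34 for the 7 tested transporters. Mfrp, a frizzled-related membrane protein, stood at 0.75, 0.40 and 0.83 FPKM in cKO-labelled libraries, against 3.17, 1.91 and 0.77 FPKM in WT, a log2 difference of -1.57 (SE 0.456). Its exons overlap C1qtnf5 on the same strand, so its counts are uncertain. Car12, a membrane carbonic anhydrase, stood at 1.04, 0.25 and 0.43 FPKM in cKO-labelled libraries, against 2.94, 1.27 and 0.58 FPKM in WT, a difference of -1.49 (SE 0.587) and an 11.8-fold span over the 6 libraries.

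Kl, which encodes klotho, the co-receptor of FGF23, stood at 2.56, 0.92 and 1.13 FPKM in cKO-labelled libraries, against 6.67, 3.96 and 1.38 FPKM in WT. Folr1, the folate receptor that carries folate into cerebrospinal fluid, stood at 2.15, 0.78 and 0.95 FPKM in cKO-labelled libraries, against 4.20, 3.06 and 1.67 FPKM in WT. Kl and Folr1 differed by -1.39 (SE 0.510) and -1.21 (SE 0.408), with cKO-labelled replicate 1 above WT replicate 3 in each. Steap1, of a metalloreductase family, had 1.83, 0.65 and 0.85 FPKM in cKO-labelled libraries, against 2.73, 2.03 and 1.15 FPKM in WT, a difference of -0.83 (SE 0.422).

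Ace and Prlr did not follow the Ttr order in cKO-labelled libraries. Ace, the angiotensin-converting enzyme, also found on endothelium, stood at 3.65, 4.70 and 4.0 FPKM in cKO-labelled libraries, against 8.24, 6.20 and 3.94 FPKM in WT. Prlr, the prolactin receptor, stood at 1.11, 1.16 and 1.29 FPKM in cKO-labelled libraries, against 1.98, 1.39 and 1.16 FPKM in WT. In both, cKO-labelled replicate 1 was the lowest of the 6 libraries, whereas in WT replicate 1 was highest and replicate 3 lowest. Their log2 differences were -0.58 (SE 0.224) and -0.35 (SE 0.176). The 8 endothelial and mural markers listed summed to 99.8 to 120.5 FPKM in cKO-labelled libraries, against 112.7 to 125.7 FPKM in WT, and their part in the Ace values was not tested.

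Junction, keratin and matrix genes were mixed. Cldn2, the pore-forming claudin of leaky epithelia, stood at 1.43, 0.44 and 0.62 FPKM in cKO-labelled libraries, against 2.54, 1.89 and 0.81 FPKM in WT, a difference of -1.08 (SE 0.467). Krt18 and Krt8, partner keratins of simple epithelia, lie 23.7 kb apart on chromosome 15. Krt18 had 35, 17 and 21 counts in cKO-labelled libraries, against 68, 32 and 34 counts in WT, and Krt8 had 16, 9 and 8 counts in cKO-labelled libraries, against 32, 20 and 17 counts in WT. Krt18, which passed the minimum level, differed by -0.94 (SE 0.380). Cdh3, the cell adhesion molecule P-cadherin, and Col8a1, a collagen VIII chain also made by other cells, had the smallest differences, -0.19 (SE 0.295) and -0.16 (SE 0.298). Cdh3 stood at 1.26, 0.93 and 1.54 FPKM in cKO-labelled libraries, against 1.5, 1.93 and 0.82 FPKM in WT. Col8a1 stood at 1.0, 0.95 and 1.20 FPKM in cKO-labelled libraries, against 1.83, 0.95 and 0.71 FPKM in WT, and both groups overlapped widely. Without WT replicate 1 the value of Col8a1 was 0.33, and without WT replicate 2 that of Cdh3 was 0.083.

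Calml4, a calmodulin-like protein of brush-border microvilli, showed a different pattern from the transporters. It had 71, 73 and 55 counts in cKO-labelled libraries, against 154, 120 and 126 counts in WT, so the groups did not overlap. Its log2 difference was -1.07 (SE 0.182), beside -1.09 (SE 0.543) for Ttr. Leaving out each library in turn gave -1.14 to -0.95 for Calml4, against -2.02 to -0.60 for Ttr.

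Of the transcription factors, Otx2 stood at 4.60, 4.14 and 3.87 FPKM in cKO-labelled libraries, against 5.86, 6.52 and 4.38 FPKM in WT, a difference of -0.42 (SE 0.144). Its exons overlap Gm49154 on the same strand and Otx2os1 on the opposite strand, so its counts are uncertain too. Msx1, a homeobox gene of the dorsal midline, stood at 0.98, 0.96 and 0.90 FPKM in cKO-labelled libraries, against 2.18, 1.42 and 1.73 FPKM in WT, a difference of -0.92 (SE 0.207), and its groups did not overlap. The span of Otx2 over the 6 libraries was 1.69-fold and that of Msx1 2.42-fold, against 8.53-fold for Ttr. Lmx1a, the roof plate LIM homeobox gene, was near its detection limit, at 9, 7 and 12 counts in cKO-labelled libraries, against 27, 9 and 1 counts in WT.

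The other members under the minimum level were Abca4, Tmem72, Wdr86, Krt8 and Slco1a5. Abca4, a retinoid flippase, stood at 0.45, 0.14 and 0.27 FPKM in cKO-labelled libraries, against 1.1, 0.69 and 0.28 FPKM in WT. Tmem72 stood at 0.54, 0.13 and 0.21 FPKM in cKO-labelled libraries, against 1.23, 0.61 and 0.26 FPKM in WT, and in both cKO-labelled replicate 2 was the lowest library and WT replicate 1 the highest. Wdr86 stood at 0.77, 0.41 and 0.47 FPKM in cKO-labelled libraries, against 1.06, 0.98 and 0.49 FPKM in WT. Slco1a5, an organic anion transporter with similar neighbours in its family, had 1, 3 and 1 counts in cKO-labelled libraries, against 18, 7 and 12 counts in WT. Counts this small carry a large counting error, and reads of its relatives may be divided.

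**Figure D2:**
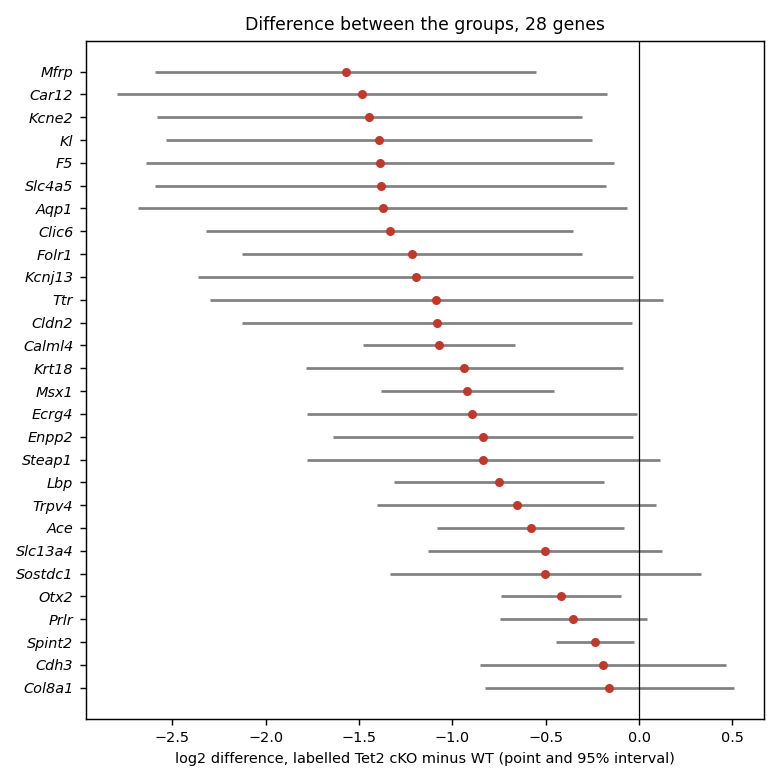
Log2 difference (libraries labelled Tet2 cKO minus WT, horizontal axis) of the 28 genes that passed the minimum level, with 95% intervals from the edgeR fit. Every point lies below 0, from -1.57 for Mfrp to -0.16 for Col8a1, and the interval is narrowest for Spint2 and widest for Car12.

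Over the 28 genes the median log2 difference was -0.93, against -0.0021 over all tested genes. All 28 were below 0, against 50.9% of tested genes. The groups did not overlap in 3 of the 28, Calml4, Msx1 and Spint2 (3.46% of all tested genes), and in 5 of the 34, and 0 of the 28 lay higher without overlap (3.34%). Single libraries moved both figures. Leaving out cKO-labelled replicate 1 gave a median of -1.34, and leaving out WT replicate 1 gave -0.57, the ends of the range over the 6 libraries. The groups did not overlap in 27 of the 34 genes without WT replicate 3 (10.5% of tested genes). Without cKO-labelled replicate 1 it was 23 (8.91%), and without any 1 of the other 4 libraries 5 or 6 (6.11% to 7.24%). These shares are of the 14539 tested genes, whereas the 34 include 6 genes under the minimum level.

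The spread between libraries of the same group comes from the same 6 values per gene that entered the choice of genes, and a very high WT library both widens the WT span and lowers the cKO-labelled group relative to WT. The counts of this and the next paragraph are therefore descriptions, and nothing is read from them against the shares of all tested genes. Of the 28 genes, 9 averaged under 1 FPKM in cKO-labelled libraries and passed the minimum through WT. Within the cKO-labelled libraries, the highest library was at least 2-fold above the lowest in 17 of the 28 genes, against 4.56% of all tested genes. Within WT this held for 21 of the 28, against 6.05%. The median ratio of highest to lowest library over the 28 genes was 2.31 in cKO-labelled libraries and 2.55 in WT. Over all tested genes it was 1.16 in cKO-labelled libraries and 1.21 in WT. The biological coefficient of variation, edgeR's estimate of the spread between replicates beyond counting error, had a median of 31.5% over the 28 genes and 9.69% over all tested genes. It lay above that of 95% of tested genes for 21 of the 28, from 23.3% for Slc13a4 to 47.9% for Car12, with 5% of tested genes there by construction. The exceptions were Spint2 (7.95%), Otx2 (12.3%), Calml4 (13.3%), Prlr (15.0%), Msx1 (15.1%), Ace (19.1%) and Lbp (20.9%).

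**Figure D3:**
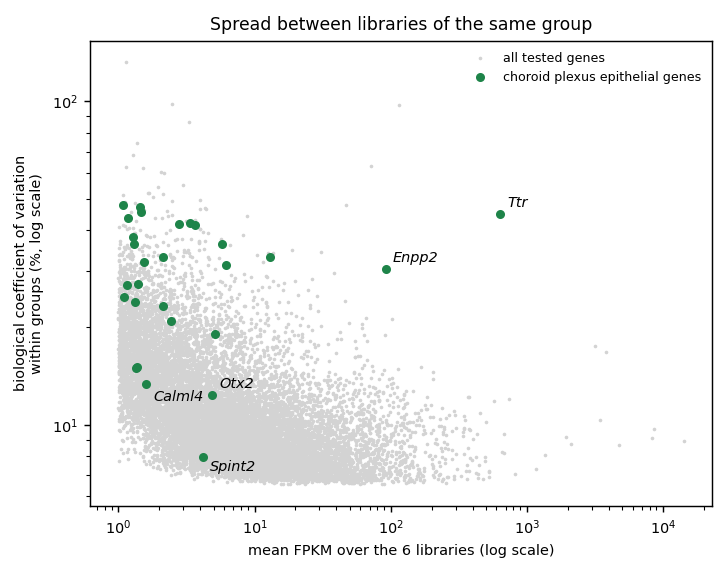
Biological coefficient of variation within groups (vertical, log scale, percent) against mean FPKM over the 6 libraries (horizontal, log scale) for all 14539 tested genes, with the 28 choroid plexus epithelial genes in green. Ttr, at 44.7%, and Enpp2, at 30.2%, stand well above genes of like level, while Spint2 lies among the rest.

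The same libraries were high and low in most of the genes, and that a WT library is highest and a cKO-labelled one lowest is largely fixed by the choice of genes. WT replicate 1 was the highest library in 26 of the 28 genes, against 12.3% of tested genes, and in 32 of the 34, and WT replicate 2 was the highest in the other 2, Otx2 and Cdh3 (17.6%). cKO-labelled replicate 2 was the lowest in 19 of the 28 (16.2% of tested genes), cKO-labelled replicate 3 in 4 (12.3%), WT replicate 3 in 3 (28.8%) and cKO-labelled replicate 1 in 2 (12.8%). cKO-labelled replicate 1 was the highest library of its group in 26 of the 34 genes and exceeded WT replicate 3 in 26. The shares of all tested genes were not counted for these figures, so nothing is read from them. The pairs of libraries compared next were chosen after these values were seen. cKO-labelled replicate 1 was at least 2-fold above cKO-labelled replicate 2 in 16 of the 28 genes (1.54% of tested genes), WT replicate 1 at least 2-fold above WT replicate 3 in 20 (2.23%), and 15 met both (0.413%).

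**Figure D4:**
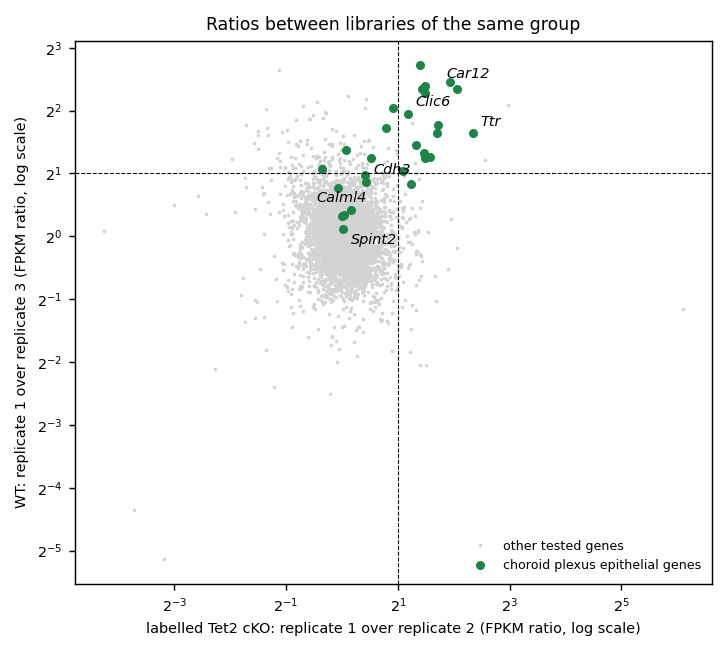
Ratio of FPKM between libraries of the same group for tested genes with at least 100 counts in all: cKO-labelled replicate 1 over replicate 2 (horizontal) and WT replicate 1 over replicate 3 (vertical), both on log scales, with dashed lines at 2-fold. The choroid plexus epithelial genes (green) fill most of the upper right corner, where 15 of them lie, and Spint2 and Calml4 sit near the centre.

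Ependymal cells, the ciliated lining of the same ventricle, gave another order of libraries. All 9 tested ependymal markers of the list were lower in cKO-labelled libraries, with a median of -0.43, and 0 passed the edgeR test at an adjusted p under 0.05. At an unadjusted p under 0.05 by edgeR, 7 of the 9 were lower (1.68% of all tested genes). The groups did not overlap in 7 of the 9 (3.46%), against 3 of the 28 choroid plexus genes. The list was written with earlier results of these data known, so these counts are descriptions. Rarres2 and Rsph1 had the smallest p and differed by -0.52 (SE 0.131) and -0.57 (SE 0.147), and Ccdc153 and Dynlrb2 were the most abundant. WT replicate 3 was the highest library in 9 of the 9, against 25.1% of all tested genes. WT replicate 1 was below WT replicate 3 in 9 of 9, for which the share of all tested genes was not counted. By 2-fold or more, WT replicate 1 was above WT replicate 3 in 20 of the 28 choroid plexus genes and in 0 of the 9 (2.23% of tested genes). The median deviation from a gene's own mean was 0.17, -0.96 and -0.60 in cKO-labelled libraries, against 1.13, 0.53 and -0.35 in WT for choroid plexus genes, on the log2 scale. For ependymal markers it was -0.27, -0.011 and -0.41 in cKO-labelled libraries, against 0.089, 0.12 and 0.36 in WT. This difference between the lists has no test, since it sets single libraries side by side.

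**Figure D5:**
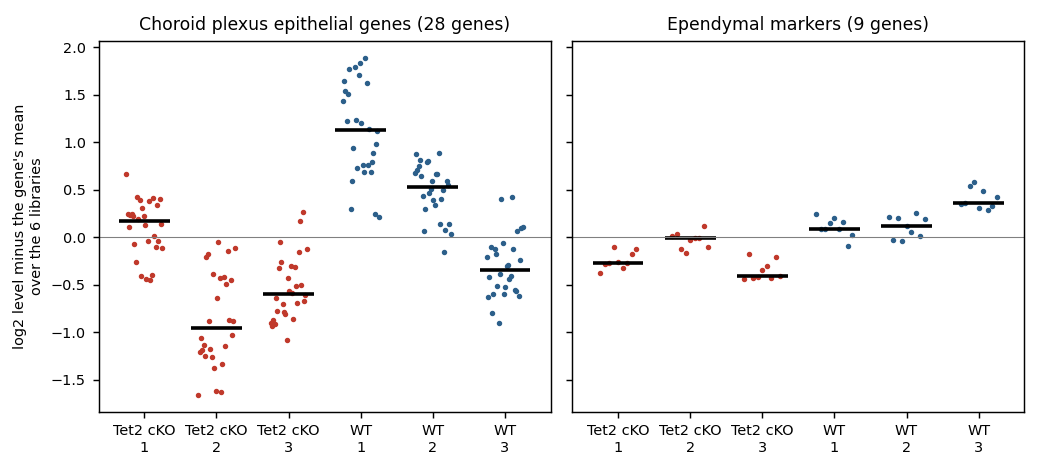
Level of each gene in each library as the log2 deviation from that gene's mean over the 6 libraries, for the 28 choroid plexus epithelial genes (left) and 9 ependymal markers (right). Points are genes and bars medians. WT replicate 1 has the highest median on the left (1.13) and WT replicate 3 on the right (0.36).

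Other genes that choroid plexus epithelium uses were listed by function, and none of these genes passed the edgeR test at an adjusted p under 0.05. Of 11 tested ion transport genes, 7 were lower and 4 higher, with a median of -0.032. Atp1b1, a sodium pump subunit, differed by -0.033 (SE 0.0686), and Car2, cytosolic carbonic anhydrase, by 0.059 (SE 0.0917). Stk39, a kinase that regulates chloride cotransport, differed by -0.15 (SE 0.0756). None of the 11 reached a 2-fold ratio between WT replicates 1 and 3, and the median ratio of highest to lowest WT library was 1.16. Neurons and glia express many of these genes as well.

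Among 11 tested solute transporters of the barrier, 9 were lower and 2 higher, with a median of -0.12. Slc2a12, a glucose transporter, stood at 2.22, 1.34 and 1.47 FPKM in cKO-labelled libraries, against 2.91, 2.33 and 1.61 FPKM in WT, in the library order of Ttr. Slc39a12, a zinc transporter, differed by 0.19 (SE 0.0951). Of 10 junction genes, 7 had a lower and 3 a higher mean FPKM in cKO-labelled libraries. The 7 lower ones were all under the minimum level, among them Cldn1 (mean 0.577 FPKM in cKO-labelled libraries, against 1.02 FPKM in WT), Cldn3 (0.163 against 0.373 FPKM) and Tjp3 (0.257 against 0.467 FPKM), which were named after their values were seen and were highest in WT replicate 1. The 3 tested ones, led by Tjp1 at 0.012 (SE 0.102), were above 0, with a median of 0.012. Of 8 tested secreted proteins, 6 were lower, with a median of -0.081. Igfbp2, an insulin-like growth factor-binding protein, stood at 13.60, 10.64 and 10.96 FPKM in cKO-labelled libraries, against 17.72, 14.74 and 14.59 FPKM in WT, a difference of -0.43 (SE 0.122, adjusted p = 0.9999 by edgeR). Bmp6 differed by -0.29 (SE 0.125), and Cst3, the most abundant of them, by -0.028 (SE 0.108). Only 2 of 10 roof plate and multicilia regulators were tested, Foxj1 at -0.41 (SE 0.114) and Rfx3 at 0.13 (SE 0.118).

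Markers of the stroma of the plexus and of the meninges were listed as well. Over the 10 listed genes the summed level was 13.8 to 16.8 FPKM in cKO-labelled libraries, against 14.2 to 19.3 FPKM in WT, and 8 of 10 had a lower mean in cKO-labelled libraries. Of the 7 tested, 5 were lower, with a median of -0.099 that became 0.060 without WT replicate 1. WT replicate 1 was above WT replicate 3 in 7 of 7, by 2-fold or more in 2 (2.23% of tested genes), and was the highest library in 4 (12.3%). It was also above WT replicate 3 in 8 of 8 habenula, 3 of 6 thalamus, 3 of 3 hippocampus and 7 of 8 astrocyte markers. The same held for 6 of 8 oligodendrocyte, 5 of 8 vessel, 5 of 6 microglia, 4 of 5 red blood cell and 0 of 9 ependymal markers. Of the lists by function, it held for 9 of 11 ion transport, 9 of 11 barrier, 3 of 3 junction and 4 of 8 secreted protein genes. This direction was thus common to most lists, and its share of all tested genes was not counted. cKO-labelled replicate 1 was at least 2-fold above replicate 2 in 0 of the 7, against 16 of the 28 epithelial genes (1.54% of tested genes). For the 7 genes the median log2 deviation was 0.16, -0.17 and -0.17 in cKO-labelled libraries, against 0.28, 0.091 and -0.20 in WT. Its lowest value, in WT replicate 3, lay close to those of cKO-labelled replicates 2 and 3. For epithelial genes the lowest was in cKO-labelled replicate 2 (-0.96). In both lists replicate 1 had the highest median of its group, and WT replicate 3 had the lowest median within WT. Sspo, of the subcommissural organ nearby, stood at 0.48, 6.36 and 0.50 FPKM in cKO-labelled libraries, against 0.49, 2.01 and 10.03 FPKM in WT, highest in WT replicate 3 and cKO-labelled replicate 2. The 6 liver genes listed summed to 3.54 to 4.03 FPKM in cKO-labelled libraries, against 0.050 to 0.19 FPKM in WT, with none past the minimum level, and 6 of 6 had the higher mean in cKO-labelled libraries. Ependymal markers, all 10 listed, summed to 48.6 to 60.5 FPKM in cKO-labelled libraries, against 65.3 to 82.1 FPKM in WT. The part of these other tissues in the choroid plexus differences was not tested.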

How the data were processed

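RNA sequencing libraries from mouse habenula, 3 labelled Tet2 cKO and 3 WT, were compared. The submitters' processing notes name FastQC 0.10.1, cutadapt 1.9.1, HISAT2 2.0.1, SAMtools 0.1.19 and build mm10. No read counter, annotation release or strand setting is named there, so reads of overlapping genes cannot be told apart (exons of 8 of the 34 genes, Kcnj13, Otx2, Prlr, F5, Enpp2, Ace, Mfrp and Krt8, overlap another gene). Counts are whole numbers per gene as deposited. FPKM values were made by the authors, and equal the deposited counts per kilobase of gene length, scaled to the library total, within 0.005.

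The table's start and end matched GENCODE M21 for only 1494 of 52083 shared gene identifiers, so positions come from GENCODE M21 (GRCm38).

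Genes averaging 1 FPKM or more were kept, and their counts were tested with edgeR 4.0.16 in R 4.3.3 (quasi-likelihood, TMM, two-sided, no covariate) with Benjamini-Hochberg adjustment over 14539 genes. limma 3.58.1 and DESeq2 1.42.0 served as alternatives, and the fit was tested on simulated counts in which 200 genes were changed. It recovered 94% of the 2-fold and 100% of the 4-fold changes. Of its 220 calls at an adjusted p under 0.05, 11.8% were false, more than that threshold allows on average. Differences are Tet2 cKO minus WT on the log2 scale. Intervals are 95% intervals.

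The members and lists were chosen with earlier results of these data known. Every member is accounted for. From each list at most 2 tested genes of highest level and 2 of smallest p are named. The listed gene Tf matched no symbol and was not used here. Other lists gave median differences of 0.042 (habenula neurons), -0.017 (thalamus), -0.16 (hippocampus), 0.13 (astrocytes), 0.081 (oligodendrocytes), -0.026 (vessels), 0.043 (microglia) and -0.17 (red blood cells), with 0 genes past the threshold.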

Additional observations from a re-analysis of the deposited data

How the results depend on the processing

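The number of genes past the threshold in all was 0 in the edgeR fit and changed with the processing. It was 49 with no filter on low values, 2 with filterByExpr, 4 with DESeq2, 2 with limma-voom and sample quality weights, and 0 to 3 when each library was left out (1 without WT replicate 2 and 3 without WT replicate 3). With no filter, 19 of the 34 choroid plexus genes were among the 49, against 0.101% of 31689 genes called lower, and DESeq2 called 1 of the 28, Calml4. The cause was not tested. The median of the choroid plexus genes lay between -1.34 and -0.57 when each library was left out and was -0.59 with limma on log2(FPKM + 1), which understates changes of low genes, and -1.29 with quality weights. Of the 28 genes, 27 or 28 were lower in each setting that kept these 28, and 34 of 34 with no filter. The number of the 34 whose groups did not overlap lay between 5 and 27 when each library was left out (6.11% to 10.5% of tested genes). This alternative was added after seeing the data. Deviations from the group mean correlated by -0.0279, 0.153 and -0.0978 between same-numbered libraries, against -0.177 to 0.17 between differently numbered ones. With 3 libraries in each group, these values cannot decide whether the numbers pair them. With the replicate block 0 genes passed, and the median was -0.93. Several list medians changed sign. Red blood cell markers became 0.29 without WT replicate 2, habenula markers -0.20 without WT replicate 3, and Sspo, the 1 tested subcommissural gene, 0.997 without WT replicate 3 against -0.78 with all libraries. Medians nearer 0, such as ion transport and junction genes, did so too. At 16089676 to 17917987 counts a library, genes under about 20 counts a library, such as Krt8, Lmx1a and Slco1a5, are limited by counting error.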

Other observations

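Genes outside the 34 were searched for the same contrast between libraries of the same group. With no minimum on counts, 60 tested genes were at least 2-fold higher in both pairs of libraries given next, of which 45 lay outside the 34. Among 13889 tested genes with at least 100 counts over the 6 libraries, 21 were at least 2-fold higher both in cKO-labelled replicate 1 than replicate 2 and in WT replicate 1 than replicate 3. Of these 21, 15 were choroid plexus genes of the list and 6 were not, or 0.0433% of the other genes. The library pairs and these names were chosen after the values were seen. Prr32, a proline-rich protein gene, stood at 1.96, 0.25 and 0.81 FPKM in cKO-labelled libraries, against 4.32, 2.46 and 1.02 FPKM in WT. The unnamed transcript 2900040C04Rik stood at 5.0, 0.85 and 2.31 FPKM in cKO-labelled libraries, against 7.94, 4.47 and 3.44 FPKM in WT. Both had WT replicate 1 highest and cKO-labelled replicate 2 lowest, as Ttr did. The predicted gene Gm44250 had 1.22, 0.51 and 0.70 FPKM in cKO-labelled libraries, against 2.23, 1.45 and 0.64 FPKM in WT. The others were Lhfpl1, Gm10073 and Gm10252, with log2 differences of -0.10 (SE 0.391), -0.51 (SE 0.435) and 0.086 (SE 0.409).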
